A study of Homo sapiens with 9 samples.

Results

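The response of VCaP cells to siRNA 1 against KMT2C was described gene by gene over the whole transcriptome. VCaP is an established human prostate cancer line with the TMPRSS2-ERG gene fusion, in which the androgen-driven promoter of TMPRSS2 drives the ETS factor gene ERG. Of the 9 RNA sequencing libraries of the study, 6 make up this comparison: 3 from cells transfected for 4 days with control siRNA and 3 from cells transfected for 4 days with KMT2C siRNA 1. The other 3, from KMT2C siRNA 2, served to estimate the spread between libraries and to test differences between the siRNAs. All groups are the same unmodified line, and apart from the siRNA no agent or allele is named in the labels. The table lists 60612 genes, of which the 12830 with at least 1 FPKM (fragments per transcript length and sequencing depth) in at least 3 of the 9 libraries were tested, and 47782 were not. Neither the siRNA sequences nor the origin of the 3 libraries of a group (separate cultures or not) were stated, so the p-values measure the spread between these libraries, which may be technical.

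KMT2C encodes a large histone methyltransferase that places methyl groups on lysine 4 of histone H3 (H3K4), mainly at enhancers, within a complex that also holds WDR5, ASH2L, RBBP5, DPY30, NCOA6, PAXIP1, PAGR1 and the H3K27 demethylase KDM6A. KMT2D is its closest relative. In prostate epithelium many enhancers are bound by the androgen receptor together with FOXA1, and genes such as KLK3, KLK2 and TMPRSS2 depend on them.

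Library totals lay between 58462215 and 70726213 counts. Mitochondrially encoded genes took 10.6% ± 0.501 of the counts in the control group and 9.02% ± 0.698 with siRNA 1 (SD, n = 3), with the lowest share, 8.25%, in siRNA 1 replicate 1. The luminal prostate genes that mark the label VCaP were present: the 10 markers summed to between 1099 and 1131 FPKM in the control libraries and between 748 and 772 FPKM with siRNA 1. The 14 retina markers, checked because the series text calls the RNA retinal, summed to 0.524 to 0.538 FPKM in control libraries and 1.15 to 1.41 FPKM with siRNA 1, and 8 and 7 of them were at 0. Fibroblast markers summed to 3.40 to 4.54 and 3.04 to 4.68 FPKM, and leukocyte markers to 0.747 to 1.46 and 1.70 to 2.02 FPKM. Endothelial markers summed to 17.9 to 21.0 and 10.7 to 14.5 FPKM, and basal epithelial markers to 4.70 to 5.18 and 9.18 to 10.1 FPKM. These sums rest on few genes. The filter was passed by 2 of 9 fibroblast, 1 of 9 leukocyte, 1 of 7 endothelial and 2 of 7 basal markers. The highest single endothelial value was 20.7 FPKM in control libraries and 14.1 FPKM with siRNA 1. For basal markers it was 2.63 and 7.84 FPKM. The part of such cells in the results was not tested.

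The targeted gene was lowered. KMT2C (ENSG00000055609, GRCh38 chromosome 7, 152134922 to 152436003, minus strand) was at 13.7, 12.1 and 12.9 FPKM in the control libraries and at 1.54, 1.80 and 2.28 FPKM with siRNA 1, so the groups did not overlap. It fell by 2.81 ± 0.13 on the log2 scale (± SE; adjusted p = 4.56e-06 from edgeR's quasi-likelihood F test, Benjamini-Hochberg over all tested genes, as for the adjusted p-values that follow), to 14.3% of control. An exact 2-sided permutation test over the 6 libraries gave p = 0.1, its lower limit with 20 possible splits. Partial duplicates of KMT2C lie elsewhere in the genome, and the sources used here do not say how the counting treated their reads.

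Over the whole transcriptome the test called 5349 genes, 41.7% of those tested: 2724 were higher (21.2%) and 2625 lower (20.5%) with siRNA 1. Most changes were small. The median size among called genes was 0.59 on the log2 scale, 2618 called genes (20.4% of those tested) changed by less than 1.5-fold, and 485 genes rose (3.78%) and 585 fell (4.56%) by more than 1 on the log2 scale. Large falls outnumbered large rises: 114 genes fell (0.889%) and 50 rose (0.39%) by more than 2, and 38 fell (0.296%) and 13 rose (0.101%) by more than 3. The median over all tested genes was 0.01. With the tested genes in 3 classes by mean FPKM, the share called went from 34.3% in the lowest to 41.2% in the middle and 49.6% in the highest class. A level of 1 FPKM was crossed upwards by 215 genes (1.68%), under it in every control library and at or above it in every siRNA 1 library, of which 187 were called higher (87.0%). It was crossed downwards by 214 genes (1.67%), of which 196 were called lower (91.6%). Both sets were picked because the groups did not overlap in these same libraries, so their high shares called follow largely from that choice. In bulk RNA, fewer cells with a transcript and less of it per cell cannot be told apart, and the values are relative to the other transcripts of a library. Because so many genes were called, each group below is read against the shares of 21.2% higher and 20.5% lower.

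**Figure D1:**
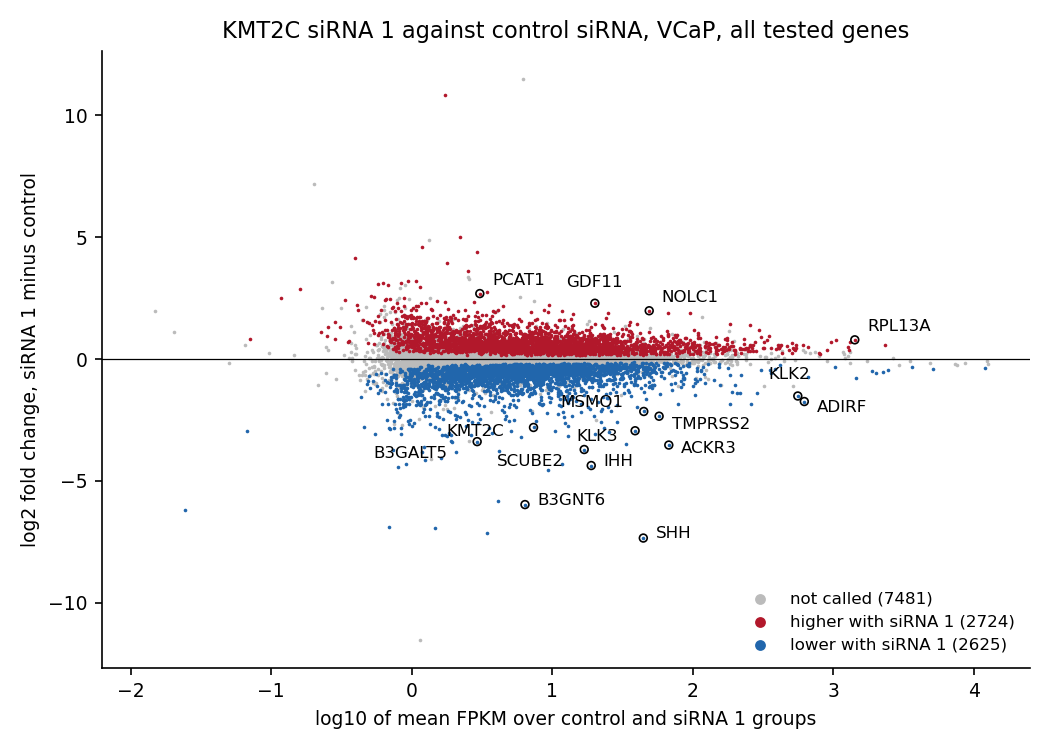
Each point is a tested gene, with the mean FPKM over the control and siRNA 1 groups on a log10 axis and the log2 fold change of siRNA 1 over control on the vertical axis. Red marks the 2724 genes called higher and blue the 2625 called lower, and 1 uncalled gene lies outside the left edge. Some genes named in the text are circled. The deepest circled fall is that of SHH, at -7.35.

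The partners of KMT2C that changed did so by less than 1 on the log2 scale. Of the 20 genes of the H3K4 methyltransferase complexes, all tested, 6 fell, KMT2C among them, and 2 rose, with a list median of -0.18. KDM6A, the demethylase of the complex, fell by 0.63 ± 0.09 from 2.67, 2.76 and 2.62 to 1.53, 1.94 and 1.83 FPKM (adjusted p = 5.94e-04). The coactivator NCOA6 fell by 0.46 ± 0.09, and the methyltransferases SETD1B, KMT2A and KMT2B by 0.64 ± 0.09, 0.54 ± 0.13 and 0.38 ± 0.10. WDR5, the scaffold shared by all these complexes, rose by 0.24 ± 0.05, and SETD1A by 0.22 ± 0.08. SETD1A passed narrowly (adjusted p = 0.0494) and did not pass in 5 of 6 fits without a library (all but siRNA 1 replicate 1), with adjusted p from 0.0652 to 0.163, nor with DESeq2 (0.0525). The level of KMT2D was 12.8, 11.9 and 12.3 FPKM in control libraries and 10.95, 13.5 and 13.6 FPKM with siRNA 1, a log2 difference of 0.01 ± 0.08 (adjusted p = 0.907). Among the 18 histone demethylases 3 rose and 9 fell. KDM5B, which removes H3K4 methylation, went from 2.97 ± 0.200 to 1.56 ± 0.0762 FPKM (mean ± SD, n = 3, log2 -0.95 ± 0.07), while the Polycomb-linked KDM2B went from 1.35 ± 0.151 to 2.99 ± 0.123 FPKM (log2 1.12 ± 0.10).

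The largest fall among called genes of at least 5 FPKM was in the hedgehog pathway. Hedgehog ligands are secreted, lipid-carrying proteins that bind the receptor PTCH1 on responding cells, which frees SMO and lets GLI factors act. The ligand gene SHH (chromosome 7, 155799980 to 155812463, minus strand) was at 86.0, 79.1 and 101 FPKM in the control libraries and 0.766, 0.475 and 0.406 FPKM with siRNA 1. The control libraries thus lay above 79 FPKM and the siRNA 1 libraries below 1 FPKM, a 163-fold fall (log2 -7.35 ± 0.27, adjusted p = 1.65e-06). The second ligand gene, IHH (chromosome 2, 219054424 to 219060921), was at 32.5, 30.7 and 45.6 FPKM in the control libraries and 1.66, 2.17 and 1.51 FPKM with siRNA 1, 20.7-fold lower. SCUBE2, whose secreted product helps release the ligands from cells, was at 29.6, 28.1 and 36.6 FPKM in the control libraries and 2.46, 2.74 and 2.09 FPKM with siRNA 1, 13.1-fold lower. On the receiving side the changes were smaller. The co-receptor gene CDON fell by 0.94 ± 0.18, the receptor gene PTCH1, which is itself a hedgehog target, by 0.92 ± 0.16 from 2.57 ± 0.379 FPKM, and the ciliary kinesin gene KIF7 by 0.60 ± 0.08. The transcription factor gene GLI3 went from 9.07, 8.78 and 8.95 to 2.72, 3.74 and 3.61 FPKM (log2 -1.44 ± 0.12). In all, 7 of the 11 tested hedgehog genes fell and 0 rose, with a median of -0.92 on the log2 scale, and 14 further genes of the list were under the filter. The remaining tested members did not pass: SMO -0.16, SUFU -0.20, EVC -0.11 and IQCE 0.91. At an unadjusted p under 0.05 edgeR gave 1 gene higher, IQCE, and DESeq2 called 1 higher after adjustment.

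Other deep falls were found in glycosylation, peptide and lipid enzymes and in receptors. B3GNT6, which builds core 3 O-glycans, was at 13.2, 9.64 and 15.04 FPKM in the control libraries and 0.239, 0.165 and 0.200 FPKM with siRNA 1, 62.9-fold lower. MME, the cell surface peptidase neprilysin, was at 7.11, 7.16 and 8.97 FPKM in the control libraries and 0.414, 0.597 and 0.722 FPKM with siRNA 1 (log2 -3.76 ± 0.20). ACKR3, a scavenging chemokine receptor, fell from 114, 104 and 155 to 10.7, 11.96 and 10.2 FPKM and ACER2, a ceramidase, from 22.0, 22.7 and 25.6 to 1.89, 3.06 and 3.06 FPKM. For these genes the highest siRNA 1 library lay well below the lowest control library. The adaptor gene SPSB1 fell by 3.22 ± 0.44. B3GALT5, a galactosyltransferase gene, had control libraries at 9.39, 1.60 and 5.05 FPKM and siRNA 1 libraries at 0.498, 0.570 and 0.477 FPKM (log2 -3.39 ± 0.53). Its antisense RNA B3GALT5-AS1 fell as well, from 1.37, 1.48 and 2.39 to 0.0688, 0.0550 and 0.140 FPKM (log2 -4.32 ± 0.40). Whether the counting used strand is not given in the sources used here, so reads of the sense and the antisense gene cannot be told apart.

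As for B3GALT5, the control libraries disagreed in 3 more of the largest falls. The tight junction gene CLDN4 was at 58.04, 0.954 and 8.47 FPKM in control libraries and 2.54, 0.447 and 0.330 FPKM with siRNA 1, so the groups overlapped. Its fall of 4.33 ± 1.36 (adjusted p = 0.0327) shrank to 2.11, with an adjusted p of 0.146, without control replicate 1. Without siRNA 1 replicate 2 or 3 the adjusted p was 0.0948 or 0.0912. TOMM6, a small subunit of the mitochondrial import channel, was at 7.93, 86.1 and 91.2 FPKM and at 6.74, 4.30 and 6.01 FPKM, with control replicate 1 close to the siRNA 1 libraries (log2 -3.47 ± 0.75). FAM47E-STBD1, a read-through model that shares exons with FAM47E and STBD1, was at 8.11, 0.832 and 11.7 FPKM and 0.0293, 0.000200 and 0.107 FPKM (log2 -7.15 ± 1.86), a size that rests on very few counts with siRNA 1. Without siRNA 1 replicate 1 its adjusted p was 0.0519. STBD1 itself differed by -0.34 ± 0.71 (adjusted p = 0.73). The sharing of reads between these overlapping models is uncertain.

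**Figure D2:**
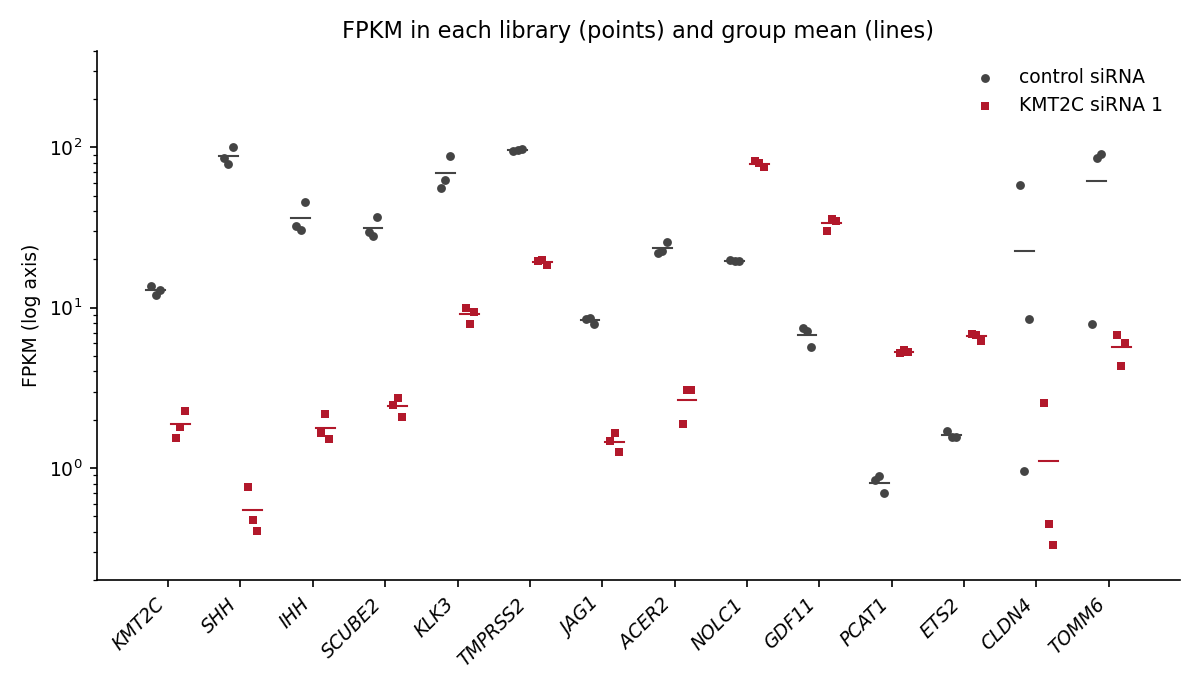
FPKM on a log axis for 14 genes named in the text, with 1 point per library and a line at the group mean (3 libraries per group). The groups are apart for the genes from KMT2C to ETS2. For CLDN4 and TOMM6 the 3 control libraries spread widely, from 0.954 to 58.04 and from 7.93 to 91.2 FPKM.

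Among genes that rose, the nucleolar phosphoprotein gene NOLC1, which takes part in ribosome assembly, combined a high level with a large change. It was at 19.7, 19.6 and 19.5 FPKM in the control libraries and 81.8, 79.3 and 75.1 FPKM with siRNA 1, 3.95-fold higher (log2 1.98 ± 0.06, adjusted p = 7.43e-07). GDF11, a ligand of the TGF-beta family, was at 7.43, 7.16 and 5.68 FPKM in the control libraries and 30.1, 35.9 and 34.8 FPKM with siRNA 1 (log2 2.29 ± 0.11). MATK, a kinase that restrains SRC family kinases, went from 3.24, 3.51 and 3.13 to 17.8, 15.4 and 13.8 FPKM, and ADAM15, a membrane metalloprotease, from 4.85, 4.86 and 4.61 to 20.8, 19.9 and 16.0 FPKM. In each of these 4 genes every siRNA 1 library was above every control library. GDF11 shares exon sequence with the neighbouring SARNP, which differed by 0.33 ± 0.12 (adjusted p = 0.0503). The theta globin gene HBQ1 rose by 2.76 ± 0.37 from 1.32, 0.445 and 0.842 to 7.13, 6.11 and 4.88 FPKM and the ETS factor gene ETS2 by 2.01 ± 0.08 from 1.70, 1.56 and 1.57 to 6.88, 6.73 and 6.24 FPKM. The germ cell gene ASZ1 rose by 2.01 ± 0.37, the phospholipid transfer protein gene PLTP by 1.98 ± 0.19 and the oxysterol-binding protein relative OSBPL5 by 1.95 ± 0.10. PLTP shares exon sequence with CTSA, and TWNK with MRPL43, so reads there cannot be told apart without strand. TWNK, the helicase of mitochondrial DNA, was uneven: it was at 2.63, 3.24 and 2.78 FPKM in the control libraries and 4.30, 15.2 and 14.3 FPKM with siRNA 1. Its rise of 1.93 ± 0.55 (adjusted p = 0.0215) no longer passed in 5 of 6 fits that each left out a library, with adjusted p between 0.0512 and 0.0666 there.

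Protein-coding genes were called higher in 21.3% and lower in 22.8% of 10747 cases. Of 774 tested long noncoding RNAs 123 were higher (15.9%) and 84 lower (10.9%). PCAT1, a prostate cancer transcript, was at 0.837, 0.888 and 0.699 FPKM in the control libraries and 5.24, 5.45 and 5.26 FPKM with siRNA 1 (log2 2.69 ± 0.09). Its gene model shares exon sequence with LRATD2, which differed by 0.39 ± 0.33 (adjusted p = 0.373). The divergent transcript ADCY6-DT rose by 2.19 ± 0.30, GACAT2, which shares exon sequence with MTCL1, by 2.37 ± 0.34, FAM222A-AS1 by 1.96 ± 0.30 and the read-through BMS1P4-AGAP5 by 2.46 ± 0.35. BMS1P4, which overlaps that read-through, fell by 1.67 ± 0.30, so these rows may divide shared reads. Falls included DRAIC, from 2.55 ± 0.651 to 0.863 ± 0.144 FPKM (mean ± SD, n = 3; log2 -1.58 ± 0.20), SSTR5-AS1, from 8.05, 7.44 and 7.83 to 2.72, 3.76 and 2.04 FPKM, and RNF32-AS1, from 1.31, 1.15 and 1.39 to 0.348, 0.251 and 0.251 FPKM.

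Androgen-induced genes shifted down, with exceptions. Of 34 tested members 16 fell (47.1%) and 4 rose, with a median of -0.34, beside 0.01 over all genes. The promoters of the list were searched on both strands for AGAACA, the unit that is repeated in androgen response elements, in the 250 bases before the RefSeq start (GRCh38.p14). It was present in 2 of the 24 members with a promoter in the table (8.3%), against 12.4% of all 35116 promoters and 7.9% of those of tested genes. The list's share was thus near that of tested genes. Among members with a promoter, 2 of 11 called lower, 0 of 3 called higher and 0 of 10 not called held a match. With so few matches, no conclusion is drawn. The members were KLK3 and TRPM8, both on the plus strand. Their windows (chr19:50854665-50854914 and chr2:233979899-233980148) are shown with the match in capitals. It starts 170 bases before the KLK3 start and 166 bases before that of TRPM8. The motifs were chosen with the results known, and a match describes the letters only.
KLK3: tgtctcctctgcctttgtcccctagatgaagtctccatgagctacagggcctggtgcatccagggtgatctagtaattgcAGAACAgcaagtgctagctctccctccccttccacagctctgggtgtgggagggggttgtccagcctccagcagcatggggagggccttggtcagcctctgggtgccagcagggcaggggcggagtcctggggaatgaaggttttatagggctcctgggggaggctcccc
TRPM8: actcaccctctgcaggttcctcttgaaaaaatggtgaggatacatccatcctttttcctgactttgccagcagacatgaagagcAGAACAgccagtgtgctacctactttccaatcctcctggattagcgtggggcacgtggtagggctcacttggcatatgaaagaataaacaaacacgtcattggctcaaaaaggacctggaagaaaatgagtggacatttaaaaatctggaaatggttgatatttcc

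KLK3 encodes prostate-specific antigen. It was at 55.8, 62.2 and 88.7 FPKM in the control libraries and 9.94, 7.97 and 9.40 FPKM with siRNA 1, 7.70-fold lower (log2 -2.94 ± 0.21, adjusted p = 2.27e-05). TRPM8, a cold-sensing cation channel, was at 9.63, 11.7 and 11.02 FPKM in the control libraries and 7.39, 7.62 and 7.68 FPKM with siRNA 1 (log2 -0.54 ± 0.08). The neighbour of KLK3, KLK2, another secreted protease gene, lost more transcript in absolute terms: it was at 848, 800.4 and 836 FPKM in the control libraries and 317, 281 and 285 FPKM with siRNA 1 (log2 -1.52 ± 0.07). TMPRSS2, the membrane protease whose promoter drives the fusion, was at 94.4, 96.7 and 98.1 FPKM in the control libraries and 19.5, 19.8 and 18.5 FPKM with siRNA 1, and its spread within groups was small beside the 5.09-fold difference (adjusted p = 2.96e-07). ERG, the fusion partner, went from 65.7, 63.0 and 63.1 to 32.8, 33.9 and 33.6 FPKM (log2 -0.96 ± 0.05). Reads from the fusion transcript can count towards either gene. SLC45A3, a prostate transporter, fell by 1.78 ± 0.10, ALDH1A3, which makes retinoic acid, by 1.99 ± 0.11, the drug efflux pump ABCC4 by 0.99 ± 0.08 and NDRG1 by 0.89 ± 0.09. Against this direction FKBP5, a co-chaperone of steroid receptors, rose from 8.12, 8.87 and 7.92 to 16.0, 17.2 and 18.2 FPKM (log2 1.02 ± 0.07), as did UAP1 (0.42) and ELOVL5 (0.36). KLK4 differed by 0.01 ± 0.09 and CAMKK2 by -0.04 ± 0.09, and neither passed. Androgen-repressed genes did not shift to one side: of 14 tested, 5 rose and 5 fell (35.7% each), with a median of 0.07. The number that rose was 3 without control replicate 2 or siRNA 1 replicate 3.

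The androgen receptor transcript itself was at 177, 166 and 149 FPKM in control libraries and 143, 157 and 182 FPKM with siRNA 1, a difference of -0.05 ± 0.09 (adjusted p = 0.656). Of 16 tested luminal transcription factors 8 fell and 3 rose. The pioneer factor gene FOXA1 was at 126, 124 and 126 FPKM in the control libraries and 83.1, 91.5 and 94.3 FPKM with siRNA 1. KLF5 had the deepest fall of the list, from 5.65, 5.94 and 7.25 to 0.950, 0.965 and 0.773 FPKM (log2 -2.83 ± 0.15). GATA2 fell by 0.82 ± 0.08, GRHL1 by 1.27 ± 0.08, GRHL2 by 0.53 ± 0.06, ELF3 by 0.81 ± 0.13 and EHF by 0.39 ± 0.08. SPDEF rose by 0.41 ± 0.08, CREB3L4 by 0.70 ± 0.13 and HNF4G by 0.42 ± 0.13. The adjusted p of HNF4G was 0.0929 without control replicate 2, 0.0895 without siRNA 1 replicate 2 and 0.0734 without siRNA 1 replicate 3. HOXB13 differed by -0.19 ± 0.09 and did not pass (adjusted p = 0.104).

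Prostate secretory and surface antigens moved in both directions, with 8 of 20 higher and 6 lower. ACP3, prostatic acid phosphatase, fell from 157, 155 and 145 to 52.5, 61.7 and 53.7 FPKM, and FOLH1, the prostate-specific membrane antigen, from 62.4, 59.5 and 70.2 to 41.6, 40.8 and 52.1 FPKM. CRISP3, a secreted cysteine-rich protein, rose from 154, 162 and 106 to 432, 360.2 and 335 FPKM (log2 1.40 ± 0.16), and NPY, TSPAN1 and TMEFF2 rose by 0.60 ± 0.07, 1.12 ± 0.18 and 2.29 ± 0.23. Of 13 tested genes of androgen synthesis and inactivation 7 rose and 3 fell, but 4 rose when any single control replicate, or siRNA 1 replicate 3, was left out. AKR1C3, which makes testosterone, fell from 24.1, 22.0 and 33.5 to 12.9, 10.9 and 12.6 FPKM, and the steroid sulfatase gene STS rose by 0.85 ± 0.12.

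Cholesterol synthesis fell along almost the whole pathway. Cells build cholesterol from acetyl-CoA through mevalonate, squalene and lanosterol, and the transcription factor SREBF2 drives these enzymes when sterols are scarce. Of 23 tested genes 18 fell (78.3%) and 1 rose, and the list median was -1.07. MSMO1, a lanosterol-processing oxidase, was at 69.5, 72.1 and 78.0 FPKM in the control libraries and 16.6, 16.2 and 17.5 FPKM with siRNA 1 (log2 -2.15 ± 0.07, adjusted p = 9.10e-07). The early enzyme gene HMGCS1 was at 39.0, 40.3 and 40.6 FPKM in the control libraries and 11.1, 7.79 and 11.9 FPKM with siRNA 1 (log2 -1.99 ± 0.17), and mevalonate kinase, MVK, fell by 1.21 ± 0.07. Squalene synthase FDFT1 fell by 1.11 ± 0.07, SQLE by 1.07 ± 0.07, lanosterol synthase LSS by 1.47 ± 0.10 and CYP51A1 by 1.04 ± 0.07. PMVK, between MVK and MVD in the pathway, was the called rise, from 63.1, 60.03 and 54.9 to 121, 98.4 and 89.8 FPKM (log2 0.78 ± 0.11). FDPS (-0.11), EBP (-0.48) and GGPS1 (0.09) were among the 4 that did not pass. The 250 bases before the start of the 18 members with a promoter in the RefSeq table held no match to TCACNCCAC, a form of the sterol regulatory element, on either strand, and 0.9% of all promoters did. With matches so rare, 18 promoters were likely to hold none, so no conclusion is drawn from this search.

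**Figure D3:**
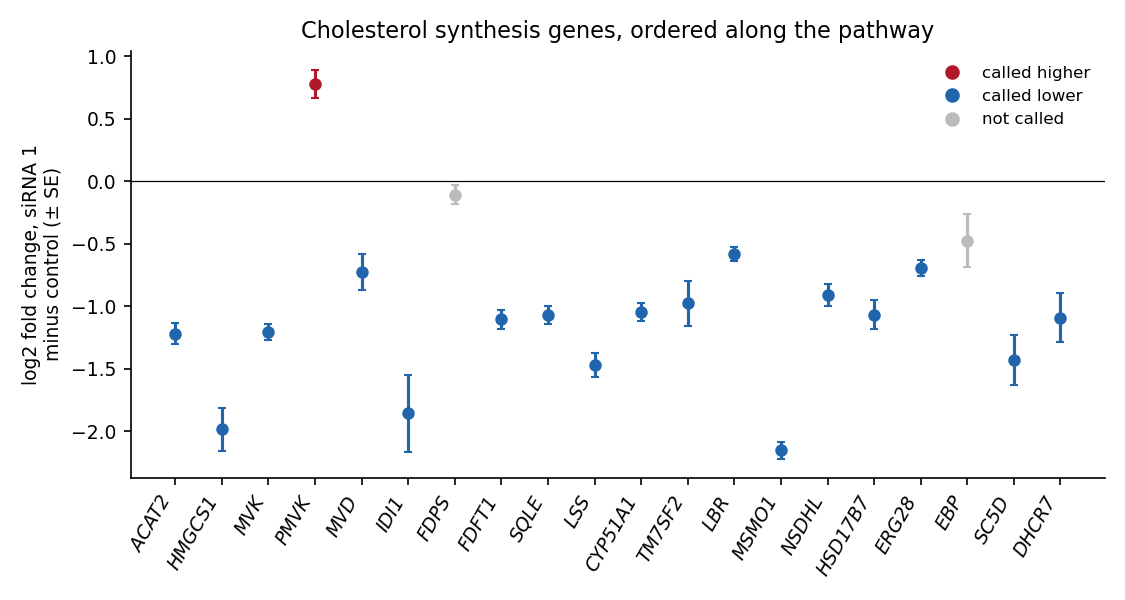
Log2 fold change of siRNA 1 over control with its standard error for 20 cholesterol synthesis genes in the order of the pathway, from acetyl-CoA on the left to cholesterol on the right (3 libraries per group). Blue points are called lower, red higher and grey not called. 3 tested genes of the list are not drawn. Apart from PMVK at 0.78, the points lie below 0.

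Regulators and transporters of sterols were more mixed, with 11 of 21 lower and 4 higher. Without control replicate 3 the number lower was 7. INSIG1, which holds SREBF2 in the endoplasmic reticulum and is itself a target, went from 35.0, 36.5 and 41.3 to 17.6, 9.74 and 10.4 FPKM (log2 -1.60 ± 0.29). SREBF2 fell by 0.62 ± 0.08, the lysosomal exporter NPC1 by 0.94 ± 0.11 and the esterifying enzyme SOAT1 by 0.66 ± 0.06. The SREBF2 escort SCAP rose by 0.24 ± 0.05, the efflux pump ABCG1 by 0.60 ± 0.17 and the receptor LRP8 by 1.21 ± 0.14. The call of ABCG1 did not hold without control replicate 1 or 2 or siRNA 1 replicate 2 or 3 (adjusted p 0.0630 to 0.0768).

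Fatty acid synthesis fell too, in 11 of 17 tested genes (64.7%), and 4 rose, or 2 without control replicate 1. Fatty acid synthase, FASN, was at 156, 158 and 173 FPKM in the control libraries and 75.3, 90.4 and 85.9 FPKM with siRNA 1 (log2 -0.98 ± 0.07), and the desaturase gene SCD at 261, 256 and 292 FPKM in the control libraries and 114, 127 and 151 FPKM with siRNA 1 (log2 -1.07 ± 0.10). The desaturases FADS1 and FADS2 fell by 0.83 ± 0.10 and 0.88 ± 0.12, and the elongase ELOVL2 by 0.78 ± 0.10. ME1, which makes NADPH for the pathway, rose from 0.304, 0.354 and 0.490 to 1.30, 1.37 and 2.12 FPKM (log2 2.02 ± 0.26). Sphingolipid enzymes and receptors were lower in 14 of 25 cases and higher in 2. Besides ACER2, the receptor gene S1PR3 fell from 1.11, 1.17 and 2.31 to 0.0890, 0.0511 and 0.0725 FPKM, the lyase SGPL1 by 0.64 ± 0.07 and the acid sphingomyelinase SMPD1 by 0.76 ± 0.14, while the ketone reductase KDSR rose by 0.66 ± 0.09.

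Epithelial junctions were lower in 17 of 32 tested genes (53.1%) and higher in 3. E-cadherin, CDH1, was at 68.1, 63.2 and 72.6 FPKM in the control libraries and 31.2, 29.9 and 35.1 FPKM with siRNA 1 (log2 -1.11 ± 0.15, adjusted p = 5.22e-04). The tight junction genes CGN, CLDN8 and OCLN fell by 1.66 ± 0.09, 2.20 ± 0.14 and 1.80 ± 0.21, and the desmosome genes DSP, DSG2 and DSC2 by 1.27 ± 0.09, 1.06 ± 0.11 and 0.92 ± 0.09. The desmosome plaque genes PKP2 and PKP3 rose by 0.50 ± 0.14 and 0.25 ± 0.08. Neither passed without control replicate 1 or 2 or siRNA 1 replicate 2, PKP2 did not without siRNA 1 replicate 3, and PKP3 did not without siRNA 1 replicate 1 (adjusted p 0.0545 to 0.113). EPCAM (0.04), CLDN7 (0.39), CLDN3 (-0.12) and JUP (0.22) did not pass. Of 19 tested integrins, laminins and collagens 11 fell and 2 rose. The laminin gene LAMC1 was at 108, 110.1 and 109.5 FPKM in the control libraries and 57.0, 68.04 and 65.9 FPKM with siRNA 1 (log2 -0.80 ± 0.08), LAMA3 fell by 0.88 ± 0.09, LAMB2 by 1.06 ± 0.08 and the integrin gene ITGAV by 1.33 ± 0.11. Of 24 genes of the mesenchymal transition 3 passed the filter, and 1 of them fell.

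HOX genes, which set position along the body axis, were lower in 11 of 17 tested cases and higher in 1, and 22 further members were under the filter. HOXA13 was at 26.4, 25.5 and 23.5 FPKM in the control libraries and 10.9, 11.8 and 11.9 FPKM with siRNA 1 (log2 -1.15 ± 0.06) and HOXA10 at 20.4, 20.1 and 22.0 FPKM in the control libraries and 10.3, 10.00 and 10.4 FPKM with siRNA 1 (log2 -1.05 ± 0.07). HOXA11 fell by 1.73 ± 0.17 and HOXC12 by 1.17 ± 0.17, HOXC13 was 2.82-fold lower, whereas HOXD13 rose by 0.97 ± 0.22 from 0.385 ± 0.0545 FPKM. HOXD13 was thus under 1 FPKM in the control libraries and passed the filter only through other groups. Across the alternative fits the number of HOX genes higher was 0 to 2. ETS factors were lower in 9 of 14 and higher in 2, ETS2 and SPDEF. Besides ERG, ELK3 fell by 1.34 ± 0.18 and ELF1 by 0.66 ± 0.11.

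In the opposite direction, genes of the ribosome and of its assembly rose. Of 83 tested cytosolic ribosomal protein genes 62 were higher (74.7%) and 0 lower, with a median of 0.43 and fold changes between -0.07 and 1.37 on the log2 scale. At an unadjusted p under 0.05 edgeR also gave 0 lower, and DESeq2 gave 0 lower after adjustment. RPL23A was at 1009, 998 and 984 FPKM in the control libraries and 1779.9, 1580.3 and 1528 FPKM with siRNA 1 (log2 0.68 ± 0.07) and RPL12 at 436, 431 and 428 FPKM in the control libraries and 690.0, 644 and 630.5 FPKM with siRNA 1 (log2 0.58 ± 0.05). RPL13A went from 1051, 1047 and 1012 to 2141, 1696 and 1620.3 FPKM, and RPL11 from 193, 164 and 181 to 502, 416 and 336 FPKM (log2 1.20 ± 0.13). In these 4 genes siRNA 1 replicate 1 was the highest library, and it also had the lowest mitochondrial share. Without that replicate 61 genes of the list were called higher, and 60 with the mitochondrially encoded genes left out of the library sizes. Ribosomal protein genes have many processed copies. Of 990 tested pseudogenes 286 were higher (28.9%) and 51 lower (5.15%): of 168 tested ribosomal protein pseudogenes 103 were higher and 1 lower (median 0.75), and of 822 other pseudogenes 183 were higher and 50 lower (median 0.22). How reads were divided between genes and copies is not given in the sources used here.

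Translation factors rose alongside. EEF1A1, which brings tRNAs to the ribosome, was at 1753, 1953 and 1867 FPKM in the control libraries and 3237, 2640.2 and 2621 FPKM with siRNA 1, and its pseudogene EEF1A1P5 rose as well (0.69). EEF2, which moves the ribosome along, was at 758, 752 and 762 FPKM in the control libraries and 1328, 1376 and 1310.5 FPKM with siRNA 1 (log2 0.80 ± 0.05, adjusted p = 8.39e-06). Of 44 tested translation factors and regulators 22 rose and 1 fell. EIF3F rose by 1.47 ± 0.11, and EIF4EBP1, whose product holds back initiation, by 0.75 ± 0.13. Of 46 ribosome biogenesis genes 31 rose and 1 fell, with a median of 0.38. TCOF1, which supports transcription of ribosomal RNA genes, was at 5.03, 4.67 and 4.91 FPKM in the control libraries and 10.8, 11.7 and 11.5 FPKM with siRNA 1 (log2 1.19 ± 0.05). The pseudouridine synthase DKC1 rose by 0.72 ± 0.08, the methyltransferase FBL by 0.78 ± 0.10 and NPM3 by 1.03 ± 0.14. Of 37 tRNA synthetases 13 rose and 4 fell, among the latter the mitochondrial LARS2, from 4.86, 4.54 and 4.88 to 1.24, 1.10 and 1.58 FPKM.

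The E-box CACGTG, a palindrome that reads the same on both strands and is bound by basic helix-loop-helix factors, was in the 250 bases before the start of 6 of the 39 ribosome biogenesis genes with a promoter in the table (15.4%), against 6.3% of all promoters and 8.5% of those of tested genes. Of these 6 genes 5 rose: LYAR by 0.88 ± 0.10, NOP10 by 0.57 ± 0.07, NAT10 by 0.50 ± 0.05, DDX21 by 0.46 ± 0.07 and UTP4 by 0.36 ± 0.09. The sixth, UTP20, differed by -0.03 ± 0.13 and did not pass. Of all 39 genes with a promoter 25 were called higher, so most of the list rose with or without a match. Here too the motif was chosen with the results known, and a match describes the letters only. The windows of NAT10, the acetyltransferase of ribosomal RNA (chr11:34105379-34105628, plus strand), and of DDX21, a nucleolar helicase (chr10:68956397-68956646, plus strand), are shown with the match in capitals, 15 and 31 bases before the start, as examples of genes with a match that rose.
NAT10: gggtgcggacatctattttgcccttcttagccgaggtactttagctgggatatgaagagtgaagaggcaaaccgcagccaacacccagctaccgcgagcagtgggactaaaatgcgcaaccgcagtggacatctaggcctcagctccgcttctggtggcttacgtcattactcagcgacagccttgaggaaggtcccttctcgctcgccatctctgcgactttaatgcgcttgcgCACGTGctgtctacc
DDX21: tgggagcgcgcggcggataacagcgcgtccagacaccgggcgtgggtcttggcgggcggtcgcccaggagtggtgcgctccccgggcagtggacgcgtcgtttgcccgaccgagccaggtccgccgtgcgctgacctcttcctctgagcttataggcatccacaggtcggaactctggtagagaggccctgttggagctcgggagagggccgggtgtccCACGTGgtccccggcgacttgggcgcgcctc

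Many nuclear genes of mitochondrial energy supply were higher, and some transcripts of the mitochondrial genome were lower. Of 79 tested nuclear OXPHOS (oxidative phosphorylation) subunits 36 were higher (45.6%) and 2 lower, and of 78 mitochondrial ribosomal proteins 28 were higher and 1 lower. MRPL4 went from 9.14 ± 0.126 to 19.2 ± 0.379 FPKM (mean ± SD, n = 3, log2 1.05 ± 0.08). NDUFB4, a complex I subunit, fell from 44.0, 39.0 and 48.8 to 20.4, 21.3 and 20.1 FPKM. Of the 13 mitochondrially encoded genes 4 fell and 0 rose (also 0 at an unadjusted p under 0.05 by edgeR, and 0 by DESeq2). MT-CO1, a subunit of cytochrome oxidase, was at 13892, 13902 and 13057 FPKM in the control libraries and 8956, 11642 and 11284 FPKM with siRNA 1, lowest in siRNA 1 replicate 1 (log2 -0.38 ± 0.09). MT-ND1, MT-ND5 and MT-ND6 fell by 0.43 ± 0.08, 0.46 ± 0.11 and 0.58 ± 0.08, and without siRNA 1 replicate 3 the number of the 13 that fell was 7.

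Calls also went with gene length over the protein-coding genes, though not in every list. In 5 classes of the tested protein-coding genes by total exon length, the share called higher went from 27.8% in the shortest to 15.3% in the longest class, and the share called lower from 15.1% to 30.5%. The median log2 fold change went from 0.11 over 0.02, -0.01 and -0.04 to -0.12. Without the ribosomal protein and OXPHOS genes the shortest class had 26.3% higher and 16.1% lower. The median exon length was 3109 bases for the ribosomal proteins, 2326 for the OXPHOS subunits and 2539 for the mitochondrial ribosomal proteins, and 4305 for cholesterol synthesis, 6138 for the androgen-induced genes, 7148 for the hedgehog pathway and 2581 for the HOX genes. The part of exon length in these results was not tested.

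**Figure D4:**
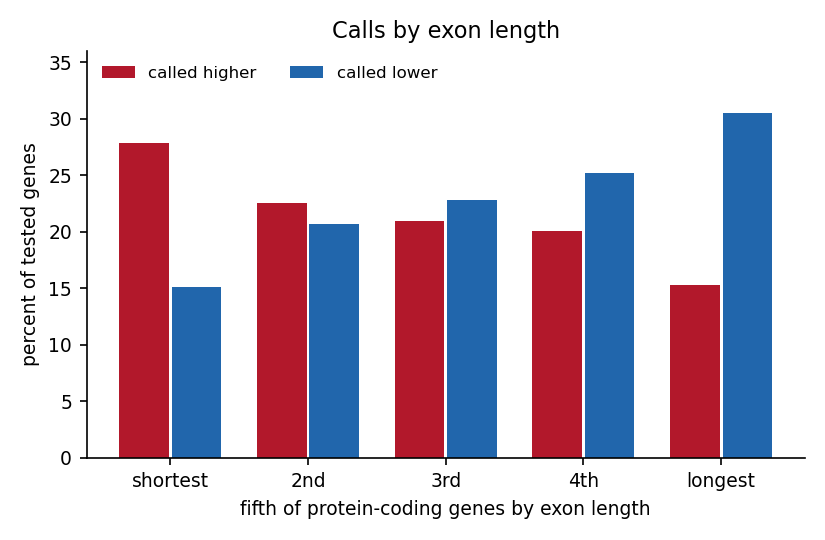
Percent of tested protein-coding genes called higher (red) and lower (blue) with siRNA 1, in 5 classes by total exon length of 2145 to 2147 genes each. The red bars go down from 27.8% to 15.3% and the blue bars up from 15.1% to 30.5% from the shortest to the longest class.

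Signalling pathways other than hedgehog were lower in part. In the Notch pathway, where ligands on a cell activate receptors on its neighbour, 9 of 24 tested genes fell and 4 rose. The ligand JAG1 was at 8.51, 8.68 and 7.89 FPKM in the control libraries and 1.48, 1.65 and 1.26 FPKM with siRNA 1, 5.80-fold lower (log2 -2.54 ± 0.10, adjusted p = 2.00e-06), while the ligands DLL1 and JAG2 rose by 0.76 ± 0.17 and 0.65 ± 0.21. Without control replicate 1 or 2, or any of the siRNA 1 replicates, JAG2 did not pass (adjusted p 0.0615 to 0.114). The receptor NOTCH2 fell by 0.89 ± 0.10 and NOTCH3 by 1.13 ± 0.23, NOTCH1 rose by 0.59 ± 0.09, and ADAM17, a protease that cleaves the receptors, fell by 1.04 ± 0.10. In the Wnt pathway 12 of 27 fell and 5 rose, and the number higher was 2 without control replicate 1 and 3 without siRNA 1 replicate 2. LEF1, a nuclear effector, was at 15.4, 15.8 and 15.2 FPKM in the control libraries and 7.18, 7.79 and 8.14 FPKM with siRNA 1 (log2 -1.03 ± 0.06). TCF7L2 fell by 1.24 ± 0.18 and the receptor LGR4 by 1.57 ± 0.45, while the ligand WNT10B and the receptor ROR1 rose by 0.94 ± 0.16 and 1.48 ± 0.16 from levels under 1 FPKM. The adjusted p of LGR4 was 0.0663 without control replicate 2 and 0.0726 without control replicate 3. In the TGF-beta and BMP pathway 15 of 32 fell and 3 rose. The decoy receptor BAMBI went from 2.65, 2.79 and 2.89 to 0.313, 0.557 and 0.264 FPKM, the receptor BMPR1A from 8.27, 9.04 and 7.98 to 4.46, 4.22 and 4.43 FPKM, and the common effector SMAD4 from 8.22, 8.10 and 7.70 to 4.70, 4.69 and 4.21 FPKM (log2 -0.84 ± 0.13). ID2, a target of the pathway, fell by 0.80 ± 0.09, and the ligand TGFB2 rose by 0.95 ± 0.20.

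**Figure D5:**
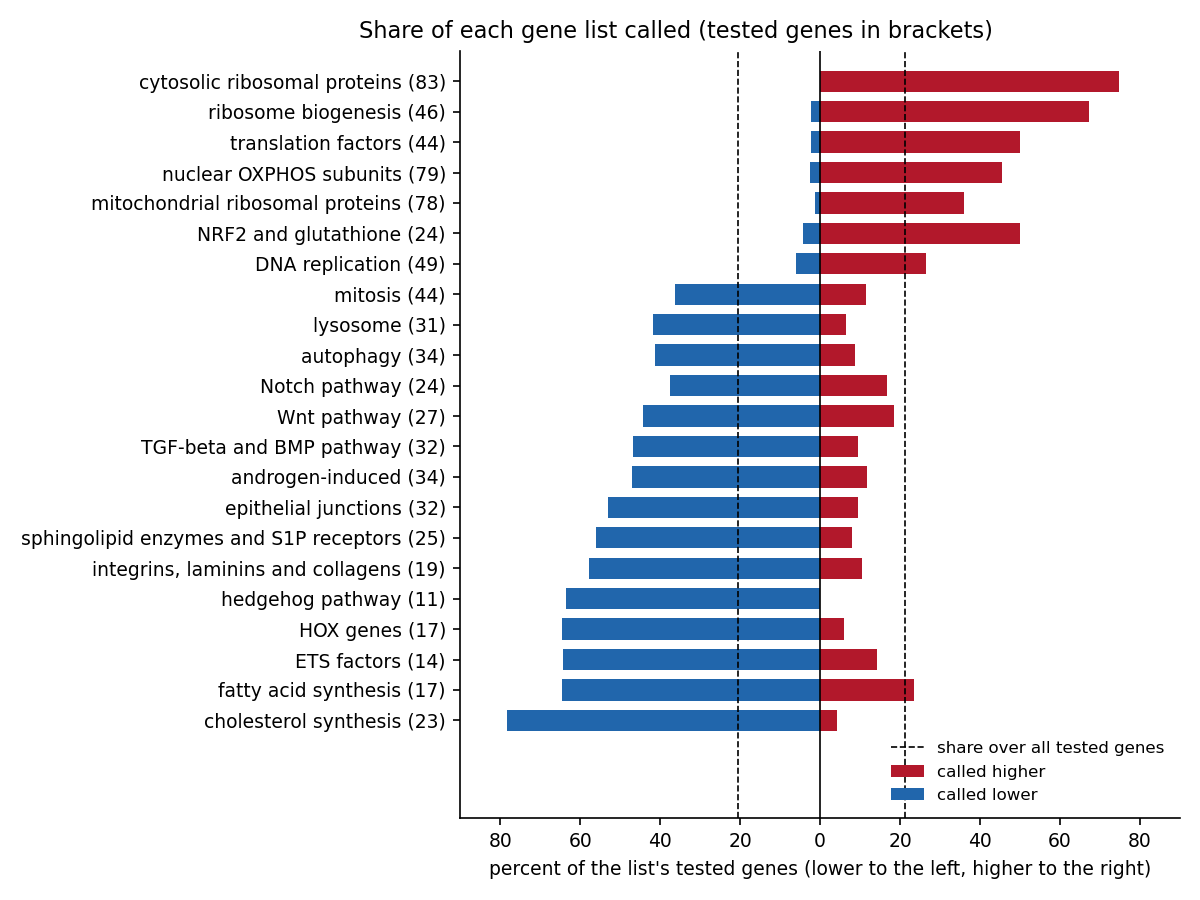
Percent of the tested genes of 22 lists called higher (red, to the right) and lower (blue, to the left) with siRNA 1, with the number tested in brackets. The dashed lines are the shares over all tested genes, 21.2% higher and 20.5% lower. Ribosomal proteins reach 74.7% higher and cholesterol synthesis 78.3% lower.

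Cell cycle genes were mixed. Of 49 tested DNA replication genes 13 rose and 3 fell, and without control replicate 3 the number higher was 8. The thymidylate synthase TYMS rose by 0.72 ± 0.09, the origin factor ORC1 by 0.78 ± 0.11 and the helicase cofactor CDC45 by 0.69 ± 0.11, whereas the single-strand binding protein RPA1 fell by 0.38 ± 0.04. Of 44 mitosis genes 16 fell and 5 rose. The kinesin KIF2C was at 25.0, 25.5 and 23.9 FPKM in the control libraries and 17.4, 15.8 and 16.8 FPKM with siRNA 1 (log2 -0.60 ± 0.07), CDC20 fell by 0.46 ± 0.06, KIF18A by 0.77 ± 0.10 and PLK1 by 0.33 ± 0.06. The number of mitosis genes called higher was 0 without control replicate 3, 2 without control replicate 1 or siRNA 1 replicate 1, and 3 without siRNA 1 replicate 2 or 3. Cyclin D1, CCND1, was at 229, 231 and 209.6 FPKM in the control libraries and 147, 151 and 141 FPKM with siRNA 1 (log2 -0.64 ± 0.06). The inhibitors CDKN1B, CDKN2B and CDKN1C fell by 0.56 ± 0.07, 2.82 ± 0.27 and 1.84 ± 0.23, and CDKN2A rose by 1.21 ± 0.20. For homologous recombination, of 36 genes 8 rose and 3 fell, and without control replicate 3 the number higher was 5. BRCA1 rose by 0.52 ± 0.08 and RAD51D by 0.85 ± 0.10, while the partner of BRCA1, BARD1, fell from 3.64, 3.89 and 3.19 to 1.75, 1.60 and 1.85 FPKM.

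Antioxidant genes under the factor NRF2 were higher in 12 of 24 tested cases (50.0%) and lower in 1. The peroxiredoxin PRDX1 was at 59.6, 61.8 and 62.9 FPKM in the control libraries and 161, 131 and 137 FPKM with siRNA 1 (log2 1.19 ± 0.09), the ferritin light chain FTL rose by 0.59 ± 0.08, thioredoxin TXN by 0.45 ± 0.07 and transketolase TKT by 0.61 ± 0.07. Lysosomal genes were lower in 13 of 31 and higher in 2, with the sialidase NEU1 lower by 1.64 ± 0.21, while the glucosidase GAA rose by 0.68 ± 0.09. Autophagy genes were lower in 14 of 34 and higher in 3, with falls of the receptors SQSTM1 (-0.67) and OPTN (-1.61) and of WIPI1 (-1.88). Circadian clock genes were lower in 8 of 15, and the called rise, of the nuclear receptor RORB, went from 0.0487, 0.0522 and 0.0233 to 0.740, 0.901 and 0.623 FPKM. RORB was under 1 FPKM in all control and siRNA 1 libraries, so it passed the filter only through siRNA 2. Replication-dependent histone genes were lower in 9 of 31 and higher in 0, also at an unadjusted p under 0.05 by edgeR and by DESeq2. H1-2 fell by 0.88 ± 0.11. H2AC18 and H2AC19, near-identical copies that can share reads, fell by 0.88 ± 0.12 and 0.84 ± 0.12. Mediator subunits were lower in 12 of 32, or 7 without siRNA 1 replicate 2, and the kinase CDK19 went from 52.97, 49.9 and 57.2 to 28.3, 31.6 and 34.6 FPKM.

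Ranked by the difference in mean FPKM, the largest rises were EEF1A1, RPL13A, RPL23A, EEF2, EEF1A1P5, RPS12, RPL7A, RPS4X, RPL3 and RPS6, which are genes of the translation machinery and, in EEF1A1P5, a copy of one. The largest falls were MT-CO1, MT-ND1, MT-ND6, MT-ND5, ADIRF, KLK2, AIDA, SPON2, S100A10 and C19orf48. ADIRF, an adipogenesis factor that shares exon sequence with ADIRF-AS1, was at 948, 971 and 955 FPKM in the control libraries and 329, 274 and 269 FPKM with siRNA 1 (log2 -1.75 ± 0.09). The secreted matrix protein gene SPON2 was at 427, 414 and 414 FPKM in the control libraries and 175, 161 and 144 FPKM with siRNA 1 (log2 -1.41 ± 0.08), and S100A10, the partner of annexin A2, at 291, 297 and 359 FPKM in the control libraries and 135, 114 and 119.5 FPKM with siRNA 1 (log2 -1.39 ± 0.11). AIDA went from 367, 345 and 506 to 98.2, 95.7 and 148 FPKM, and BROX, which shares exon sequence with it, fell by 1.28 ± 0.29. C19orf48, a host of small nucleolar RNAs, went from 282, 273 and 273 to 121, 129.8 and 75.7 FPKM.

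By the KEGG names in the table, among the 268 pathways with at least 15 tested genes, the largest share called higher was that of Ribosome, with 81 of 131 genes (61.8%). Next came Pentose and glucuronate interconversions with 8 of 16 genes higher and 2 lower, and Steroid hormone biosynthesis with 9 of 20 higher and 4 lower. ABC transporters and Galactose metabolism had 8 of 18 higher each, and 5 and 3 lower. The largest share called lower was that of Steroid biosynthesis, with 11 of 15 genes (73.3%) and 0 higher. ECM-receptor interaction followed with 16 of 28 lower and 1 higher, and Hedgehog signaling with 18 of 32 lower and 4 higher. Complement and coagulation cascades and Other glycan degradation had 8 of 15 lower each, and 3 and 4 higher. These shares rank the pathways and were not tested.

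The siRNA 2 libraries differed from those of siRNA 1 in 5068 genes (39.5% of those tested), and both sequences were set against each other directly. KMT2C itself was at 1.72, 1.64 and 1.73 FPKM with siRNA 2. Its log2 of siRNA 1 over siRNA 2 was 0.17 ± 0.12 and did not pass (adjusted p = 0.309). The cause of the differences between the siRNAs was not tested. SHH was at 7.22, 8.13 and 7.87 FPKM with siRNA 2, above siRNA 1 (log2 of siRNA 1 over siRNA 2 -3.77 ± 0.23, adjusted p = 8.16e-06), while IHH and SCUBE2 were higher with siRNA 1 than with siRNA 2, by 2.15 ± 0.22 and 2.47 ± 0.14. NOLC1 was at 59.2, 57.4 and 56.8 FPKM with siRNA 2 and RPL23A at 1043, 1037 and 1084 FPKM, both below the level with siRNA 1 (log2 0.48 ± 0.05 and 0.66 ± 0.07). MSMO1 was at 29.98, 29.1 and 29.1 FPKM (log2 -0.78 ± 0.07, adjusted p = 4.07e-05) and SQLE at 50.8, 50.2 and 53.8 FPKM (log2 -1.02 ± 0.07, adjusted p = 1.44e-05). Set against control, RPL23A and SQLE did not pass with siRNA 2 (log2 0.03 ± 0.07 and -0.05 ± 0.07, adjusted p = 0.784 and 0.567). NOLC1 and MSMO1 did pass with siRNA 2, at 1.51 ± 0.05 and -1.37 ± 0.07. For GDF11 the difference was 0.06 ± 0.10 (adjusted p = 0.71) and for ACER2 -0.23 ± 0.19 (adjusted p = 0.371), which did not pass.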

How the data were processed

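RNA sequencing of total RNA was compared between VCaP cells given control siRNA and KMT2C siRNA 1 for 4 days, 3 libraries each. The deposited table holds expected counts and FPKM per gene and library, made by the authors. Per the submitters' processing notes the tools include Bowtie 0.12.2 and the builds mm8 and hg38, with no roles given. The counter, annotation and strand setting used are not named in the sources at hand. GENCODE 29 holds 58394 of the gene identifiers, 72.7% of them with the same start and end, so coordinates are given as GRCh38. The counts are whole numbers of about 4 per fragment, and rounding left them as deposited. Genes without counts are listed at 0.0001 FPKM in the deposited FPKM values.

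Genes with at least 1 FPKM in at least 3 of the 9 libraries were tested on the counts with edgeR 4.0.16 (TMM scaling, quasi-likelihood F test, Benjamini-Hochberg threshold 0.05), with all 3 groups sharing the estimate of spread. SE is the log2 fold change divided by the root of F. Fold changes come from this fit, and FPKM values are printed per library. The fit was tested on simulated data with known changes. Named genes are KMT2C and its complexes, the 12 largest rises and falls of at least 5 FPKM, the 10 largest by FPKM difference, the 5 long noncoding genes each way, the 5 KEGG pathways each way, the 5 genes each way that differ most between the siRNAs, and up to 4 members per list by adjusted p. Further list members were named for their role with their values known, and some list members are not reported here by name. The lists and the comparison were chosen with earlier results of these data known. Promoter sequences are RefSeq's (GRCh38.p14). Alternatives were DESeq2 1.42.0, limma 3.58.1 on log2(FPKM + 1) and log2(FPKM + 0.1), other scalings and filters, a replicate block, and leaving out each library.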

Additional observations from a re-analysis of the deposited data

Results flagged for a closer look

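The following 10 genes were called with siRNA 1 against control and had the largest called differences between siRNA 1 and siRNA 2 (edgeR's quasi-likelihood test), given as the log2 of siRNA 1 over siRNA 2. Higher with siRNA 1 than with siRNA 2 were APOH at 4.96, MYBPC1 at 3.71, ARHGDIB at 3.56, SCGN at 3.50 and MAPKAPK3 at 3.49. Lower with siRNA 1 than with siRNA 2 were PAX1 at -4.11, CLDN4 at -3.84, SHH at -3.77, LUM at -3.76 and TOMM6 at -3.64.

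For 4 of them, ARHGDIB, MAPKAPK3, MYBPC1 and LUM, the siRNAs lay on opposite sides of control, in comparisons that share the control libraries. ARHGDIB, an inhibitor of small GTPases, was at 17.99, 19.9 and 17.5 FPKM in the control libraries and 41.9, 63.8 and 54.2 FPKM with siRNA 1 and at 4.87, 3.67 and 5.22 FPKM with siRNA 2. MAPKAPK3, a kinase under p38, was at 13.5, 12.7 and 12.9 FPKM in the control libraries and 30.02, 35.3 and 32.9 FPKM with siRNA 1 and at 3.20, 2.53 and 3.17 FPKM with siRNA 2, and its gene model shares exon sequence with CISH. MYBPC1, a myosin-binding protein, was at 3.15, 3.69 and 2.71 FPKM in the control libraries and 7.09, 7.49 and 7.30 FPKM with siRNA 1 and at 0.630, 0.560 and 0.505 FPKM with siRNA 2. In each of these 3 genes the groups did not overlap.

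PAX1, a paired-box factor, was at 0.184, 0.291 and 0.177 FPKM in control libraries, 0.593, 0.935 and 0.525 FPKM with siRNA 1 and 13.5, 11.7 and 11.1 FPKM with siRNA 2. It was under 1 FPKM in all control and siRNA 1 libraries and passed the filter only through siRNA 2. LUM, the proteoglycan lumican, was at 1.44, 1.27 and 1.02 FPKM in the control libraries and 0.817, 0.610 and 0.667 FPKM with siRNA 1 and at 10.2, 7.04 and 11.99 FPKM with siRNA 2, with no overlap of the groups. It fell with siRNA 1 (log2 -0.85 ± 0.22, adjusted p = 0.0157), and the adjusted p was 0.0522 without control replicate 1 and 0.0536 without siRNA 1 replicate 2. APOH, a plasma glycoprotein, was at 6.48, 6.66 and 9.74 FPKM in the control libraries and 3.84, 2.44 and 4.63 FPKM with siRNA 1 and at 0.111, 0.130 and 0.0988 FPKM with siRNA 2. SCGN, a calcium-binding protein, was at 4.76, 4.18 and 6.34 FPKM in the control libraries and 0.902, 0.889 and 0.685 FPKM with siRNA 1 and at 0.0001, 0.173 and 0.0324 FPKM with siRNA 2, where 0.0001 is the value listed for a gene without counts. For CLDN4 and TOMM6 the siRNA 2 libraries, at 16.4, 16.3 and 16.5 and 76.0, 73.4 and 69.9 FPKM, were close together, unlike the control libraries.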

How the results depend on the processing

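Across 17 alternatives, 211 named genes called with siRNA 1 gave 3530 values, of which 3471 kept the direction and the call, 59 kept the direction without passing the threshold, and 0 changed direction. Of these genes 199 were called under each alternative in which they were tested. Many were named for a small adjusted p or a large change in these same libraries, so their stability follows in part from that choice. With a filter of 5 FPKM in 3 libraries, under which fewer genes were tested, 1717 genes were higher and 3197 differed between the siRNAs. Leaving out 1 library at a time gave 2257 to 2538 genes higher, 2207 to 2530 lower, and 4468 to 4981 that differed between the siRNAs, and KMT2C stayed between -2.98 and -2.69 on the log2 scale. DESeq2 called 2836 higher and 2975 lower, and upper-quartile scaling 3072 and 2293. The share of calls shared with the same direction ran from 62.0% with the filter of 5 FPKM to 99.5% with DESeq2. It was 81.1% to 87.0% with 1 library left out, and 85.2% with only the 6 libraries of siRNA 1 and control. Among genes not called, IQCE passed with DESeq2, with the replicate block and without control replicate 2, EBP passed without control replicate 1 or siRNA 1 replicate 1, and SARNP passed in 8 alternatives. The cause was not tested. TGFB2 did not pass with limma on log2(FPKM + 1), at an adjusted p of 0.241. List counts of 5 or fewer often moved by over 1.5 times when a library was left out.

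The labels give the groups the same replicate numbers, but libraries with the same number did not deviate together (correlations of deviations from -0.069 to 0.039). No shared replicate effect was thus seen over all genes, but this cannot show whether the libraries were prepared in pairs. With the replicate block 2539 genes were higher and 2468 lower, and 4766 differed between the siRNAs. Of the named genes 4 lost the call under the block: HNF4G, JAG2, PKP3 and SETD1A, with adjusted p from 0.0571 to 0.0677. With counts divided by 4, 2723 genes were higher and 2635 lower.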

Other observations

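Beside shares of 21.2% higher and 20.5% lower over all tested genes, of 22 tested p53 targets 5 were higher and 6 lower, and 3 were higher without control replicate 1. Of 19 interferon-stimulated genes 4 were higher and 6 lower, of 22 glycolysis genes 5 and 4, of 36 Polycomb genes 7 and 9, and of 46 proteasome subunits 8 and 3. The number of proteasome subunits higher was 5 without control replicate 1 or 2, and the number lower was 8 without siRNA 1 replicate 1. Receptor tyrosine kinases and their ligands moved in both directions, with 9 higher and 12 lower of 29. Semaphorins, plexins and ephrins, which guide growing cells, were higher in 1 and lower in 11 of 32, or lower in 6 without control replicate 3.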
